A study of Arabidopsis thaliana with 15 samples.

Results

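The move from callus-inducing medium (CIM) to shoot-inducing medium (SIM) at 27 °C was described by 6 of the 15 RNA libraries of the series, 3 made after SIM and 3 made after CIM, with every gene of the table as a candidate. The libraries were taken by their column names, and 20704 of 33602 genes passed a filter on low counts and were tested. The material was hypocotyl explants, pieces cut from the seedling stem below the cotyledons, of Arabidopsis thaliana of the wild-type accession Col-0. About 100 explants made up each sample, cut from etiolated seedlings kept without light at 22 °C until they were 7 days old. SIM explants had spent 4 days on CIM and 4 further days on SIM, in continuous light and always at 27 °C. CIM explants had spent 4 days on CIM at 27 °C. SIM held 0.5 mg/L of the cytokinin 2-iP, 0.15 mg/L of the auxin IAA and 2.5 g/L gellan gum. CIM held 0.1 mg/L of the cytokinin kinetin, 0.5 mg/L of the synthetic auxin 2,4-D and 7.5 g/L gellan gum. SIM explants therefore had 8 days in culture and light against 4 days for CIM explants, so that hormones, gellan strength and time in culture cannot be told apart. The matching move at 17 °C, with 3 SIM and 3 CIM libraries, served for comparison, and 3 libraries of explants at 0 h gave the starting levels.

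Auxin-rich medium makes cells next to the vascular strand of an explant divide into callus, a tissue organized much like the tip of a lateral root. When the hormone balance is turned toward cytokinin, some of these cells give up root-type regulators, switch on the homeodomain protein WUSCHEL and the NAC factors of organ boundaries, and build a shoot meristem. The callus greens as chloroplasts mature in the light. In whole explants, fewer cells of a type and less RNA per cell cannot be told apart, so each value below is an average over all tissues of the explant.

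SIM libraries at 27 °C held 4140425 to 4319405 counts and CIM libraries 3914906 to 4446863. A binomial test called 0 genes between libraries 1 and 3 of CIM at 27 °C, which were counted as 1 sample where a mean is drawn. Tests kept them apart, and with the 2 summed 1632 genes rose and 1580 fell by the rule given below. The other pairs within a medium at 27 °C differed in 1 to 13 genes. The chi-square per gene was 0.732 for that pair and 0.72 to 0.895 over all 6 such pairs. Averaged over genes, neither medium therefore varied by more than sampling noise. SIM libraries 1 and 2, at 0.72, were as close by this measure but were not merged. CIM library 2 had counts for 2149 genes at 0 in its 2 companions, 3007 counts in all, so that a trace in CIM that comes from it alone is marked below. Library 3 of CIM at 17 °C stood apart from the other 2 of its group by 165 and 170 genes. The labels do not say that the libraries came from separate cultures, so p-values measure the spread between these samples, which is very small and may be technical. Levels below are in CPM, that is, counts relative to the scaled total of each library.

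With edgeR's quasi-likelihood test, 10284 of 20704 genes (49.7%) had an adjusted p under 0.05 between SIM and CIM at 27 °C, 5154 (24.9%) of them higher and 5130 (24.8%) lower. In what follows a gene rose or fell where it also changed by at least 1 log2 unit, that is 2-fold. By that rule 1600 genes (7.73%) rose and 1574 (7.6%) fell, together 3174 (15.3%). The 3 SIM libraries did not overlap the 3 CIM libraries in 12602 genes (60.9%). Changes of at least 16-fold were found in 261 genes that rose and 349 that fell, and fitted changes of at least 256-fold in 37 and 25. The median change over all genes tested was -0.01 log2. Among 28 gene lists, 27 of 28 tested photosystem genes and 7 of 8 root hair genes rose, while 12 of 20 root-type callus genes and 8 of 11 epidermal genes fell. Of 33 cell cycle genes 2 rose, a share near that of all genes.

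**Figure D1:**
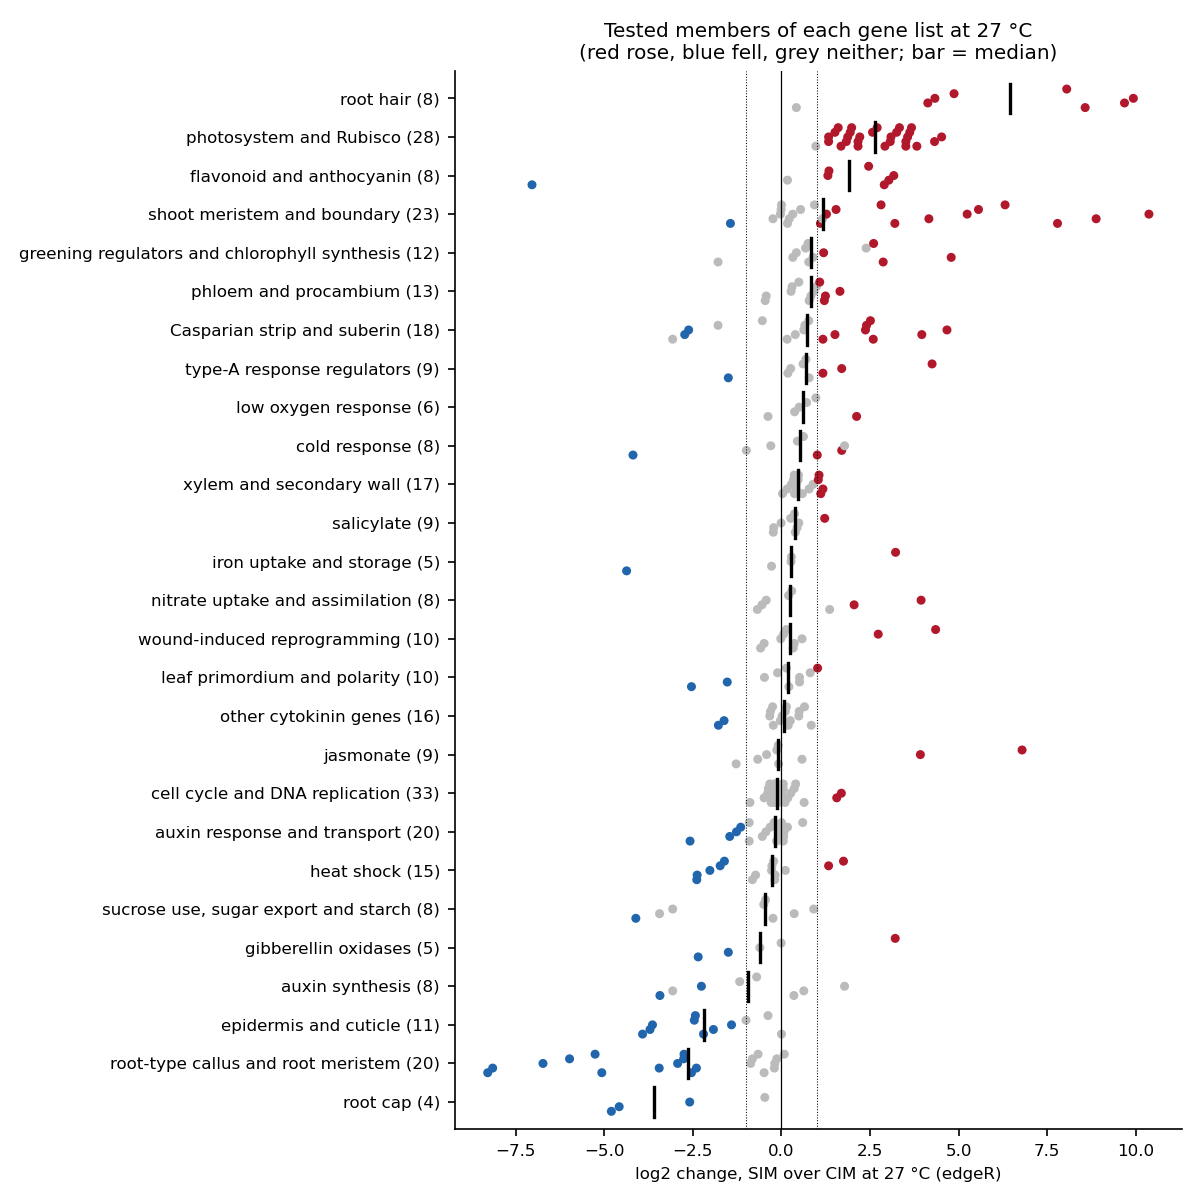
Log2 change of each tested gene, SIM over CIM at 27 °C (horizontal axis, log2 units), with 1 row per list and the number of tested genes beside its name; red points rose, blue fell, grey did neither, and a bar marks the median. The photosystem list has its median at 2.64 and root-type callus at -2.65, while cell cycle genes crowd around -0.13; genes at 0 in 1 of the groups are drawn at their fitted value, which is no bound.

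The shoot meristem and boundary list showed the onset of shoot regulators. Of its 26 genes 23 were tested, 12 rose and 1 fell, with a median of 1.16 log2 against -0.01 over all genes. WUS (AT2G17950, chromosome 2, 7808871 to 7810795), the homeodomain protein that maintains the stem cells of the shoot tip, had 16.6, 12 and 15.4 CPM in SIM libraries against 0, 0 and 0 CPM in CIM libraries. It was therefore at least 63.5-fold higher on SIM, taking 3 counts over the group as the floor (edgeR adjusted p = 2.27e-13). STM (AT1G62360, chromosome 1, 23058582 to 23061722), the KNOX homeodomain protein that keeps meristem cells undifferentiated, had 6.72, 6.33 and 7.6 CPM on SIM against 0, 0 and 0 CPM on CIM. That placed it at least 29.8-fold higher (edgeR adjusted p = 1.08e-10). Neither gene had a single read in CIM at 27 °C, and each was present in all 3 SIM libraries.

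CUC1 (AT3G15170, chromosome 3, 5109883 to 5111447), a NAC factor of the boundary between meristem and organ, had 35.2, 34.9 and 32.9 CPM on SIM against 3.23, 3.48 and 4.33 CPM on CIM. Its change was 3.2 ± 0.17 log2 (SE; edgeR adjusted p = 4.85e-17). CUC3, of the same family, had 4.48, 6.09 and 7.6 CPM on SIM against 0, 0.497 and 0.433 CPM on CIM, a change of 4.16 ± 0.51 log2 (SE). CUC2 stood higher in every SIM library, at 70.5, 73.6 and 70.7 CPM against 46.1, 48.9 and 52.9 CPM on CIM, yet its 0.54 ± 0.08 log2 (SE) stayed under the 2-fold limit. The 3 CUC genes thus differed in where they started, with CUC2 already well expressed in callus.

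Genes with nearly no reads in callus formed the top of the list. CYP78A5 (AT1G13710, chromosome 1, 4702725 to 4704657), a cytochrome P450 that promotes organ growth from the meristem edge, had 50.4, 34.2 and 39.6 CPM on SIM against 0, 0 and 0 CPM on CIM, at least 180-fold higher (edgeR adjusted p = 4.01e-14). LSH4 (AT3G23290, chromosome 3, 8326825 to 8328132), an ALOG-domain nuclear protein of the shoot boundary, had 21.5, 19.9 and 21 CPM against 0, 0 and 0.65 CPM. The ratio of its summed counts was 90-fold, with a 95% counting interval of 30.5 to 439. ATH1, a BELL homeodomain partner of STM, was 56.6-fold higher (95% interval 15.3 to 473), and the boundary gene LOB 52.6-fold (9.04 to 2117). These intervals cover counting error alone, and the trace of LOB in CIM came from library 2.

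Among genes that callus already expressed, the MYB factor RAX1, which starts axillary meristems, rose by 2.81 ± 0.27 log2 (SE), and ESR1, an AP2-type factor that promotes shoot regeneration, by 1.54 ± 0.22. CLV1, the receptor kinase that restrains the stem cell pool, had 33.6, 32.6 and 36.9 CPM on SIM against 14.3, 14.9 and 13.4 CPM on CIM, a change of 1.27 ± 0.11 log2 (SE). The BELL homeodomain gene BLR rose by 1.1 ± 0.09 log2 (SE). HAN, a GATA factor of organ boundaries, was the member that fell, with 11.9, 9.37 and 12.2 CPM on SIM against 26.7, 30.8 and 33.4 CPM on CIM (-1.44 ± 0.14 log2, SE). The KNOX genes KNAT1 and KNAT6 had changes of -0.03 ± 0.05 and -0.01 ± 0.05 log2 (SE), and the receptor kinase BAM1 had 298, 299 and 301 CPM on SIM against 292, 317 and 293 CPM on CIM. Of the 3 members that were not tested, CLV3, the peptide that signals through CLV1, had 2.24, 1.64 and 2.07 CPM on SIM and 0 in every CIM library, at least 8.6-fold. ESR2, the close relative of ESR1, had 1.79, 1.41 and 2.53 CPM and 0, at least 8.27-fold.

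**Figure D2:**
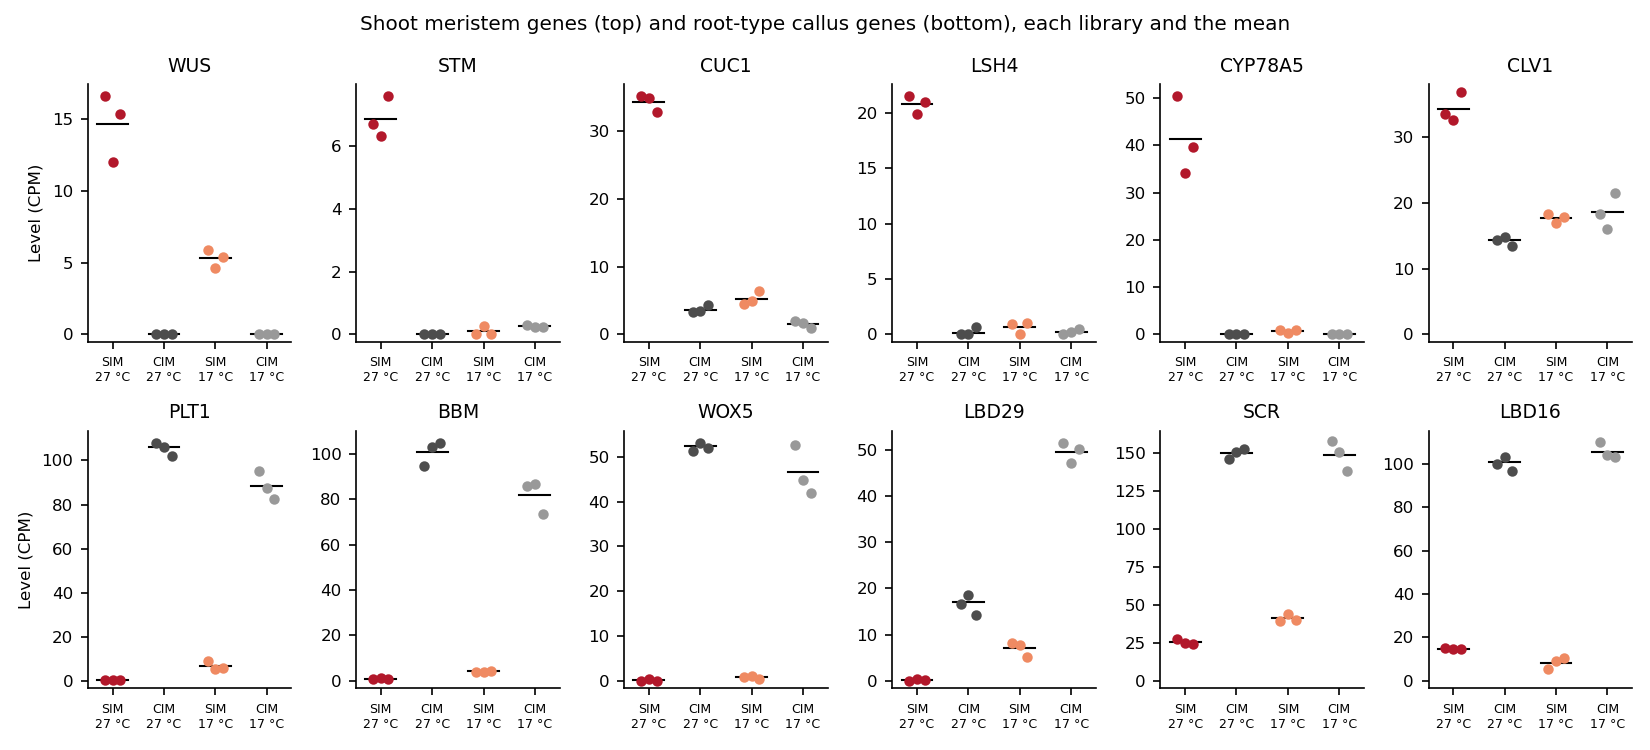
Level of 6 shoot meristem genes (top) and 6 root-type callus genes (bottom) in CPM, 1 point per library, for SIM and CIM at 27 °C and SIM and CIM at 17 °C; the line is the group mean, with CIM libraries 1 and 3 at 27 °C counted as 1. WUS, STM and CYP78A5 are above 0 in SIM at 27 °C and at 0 in CIM at 27 °C, while PLT1, BBM and WOX5 are at most 1.17 CPM in SIM and at 51.4 to 108 CPM in CIM at 27 °C.

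Of 18 genes of leaf primordia and leaf polarity 10 were tested, 1 rose and 2 fell, beside 7.73% and 7.6% of all genes. The summed level of the list was 864 to 881 CPM on SIM against 740 to 773 CPM on CIM. ANT, an AP2-type growth factor of organ primordia, had 155, 150 and 152 CPM on SIM against 75.4, 71.5 and 78.4 CPM on CIM, a change of 1.02 ± 0.05 log2 (SE), and lay just under the 2-fold limit, at 0.99, without CIM library 2. The YABBY gene YAB3 fell to 1.79, 1.41 and 0.23 CPM on SIM, against 6.22, 5.96 and 8.23 CPM on CIM. GIF1, a coactivator of growth-regulating factors, fell to 28.4, 24.1 and 22.1 CPM on SIM, against 71.9, 79.5 and 65.9 CPM on CIM (-1.53 ± 0.08 log2, SE). FIL, a YABBY gene of the lower leaf face, had 0 in all 6 libraries, and the leaf growth gene JAG had at most 0.469 CPM. The upper-face genes PHB, PHV and REV were expressed at 159 to 210 CPM on SIM and 112 to 231 CPM on CIM, with changes of -0.11 to 0.51 log2.

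Regulators of root-type callus fell in the majority. All 20 genes of that list were tested, 12 fell, with a median of -2.65 log2, and their summed level was 602 to 621 CPM on SIM against 1459 to 1508 CPM on CIM and 546 to 551 CPM at 0 h. PLT1 (AT3G20840, chromosome 3, 7300675 to 7303693), an AP2-type master regulator of the root stem cell niche, had 0.448, 0.234 and 0.23 CPM on SIM against 108, 106 and 102 CPM on CIM. Its change was -8.29 ± 0.19 log2 (SE; edgeR adjusted p = 1.74e-25). BBM (AT5G17430, chromosome 5, 5742542 to 5745568), a relative of PLT1 that can drive embryo formation, had 0.896, 1.17 and 0.691 CPM against 94.7, 103 and 105 CPM, or -6.73 ± 0.17 log2 (SE). WOX5 (AT3G11260, chromosome 3, 3527575 to 3528433), the homeodomain gene of the root quiescent center and the root counterpart of WUS, had 0, 0.469 and 0 CPM on SIM against 51.4, 53.1 and 52 CPM on CIM. The ratio of its summed counts was 341-fold lower on SIM, with a 95% counting interval of 94 to 2821. In these 3 genes the SIM libraries fell to traces while the CIM libraries lay within a narrow band. PLT1 and PLT2 are paralogs, and the sources used here do not give how reads matching both were handled. PLT2 changed by -5.26 ± 0.21 log2 (SE).

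Regulators of lateral root founding and of ground tissue fell by varying amounts. LBD16, a LOB-domain factor that acts directly below auxin in founding lateral roots and callus, had 15, 14.5 and 14.7 CPM on SIM against 99.8, 103 and 96.6 CPM on CIM (-2.75 ± 0.08 log2, SE). LBD18 changed by -2.76 ± 0.09 log2 and LBD33 by -5.07 ± 0.29 log2 (SE), and LBD29 was 71.5-fold lower by its summed counts (95% interval 24.1 to 350). SCR, the GRAS factor of endodermis and quiescent center, had 27.5, 25.1 and 24.4 CPM on SIM against 146, 151 and 153 CPM on CIM (-2.54 ± 0.06 log2, SE). JKD, a zinc-finger partner of SCR, changed by -2.4 ± 0.08 log2 (SE), whereas SHR, the factor that moves from the stele to activate SCR, changed by -0.2 ± 0.05. WOX11, a homeodomain gene of root founder cells, and PLT5, an AP2-type factor of competence to regenerate, stayed under the threshold at 0.08 ± 0.06 and -0.13 ± 0.06 log2 (SE). Fitted changes over the list ran from -8.29 log2 in PLT1 to 0.08 log2 in WOX11.

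Of 20 tested auxin-response genes 4 fell and 0 rose, beside 7.6% and 7.73% of all genes, with a median of -0.18 log2. GH3.1, which conjugates auxin to amino acids, had 18.8, 19.2 and 17.3 CPM on SIM against 107, 116 and 109 CPM on CIM (-2.58 ± 0.08 log2, SE). Its relative GH3.2 fell by 1.27 log2, as did the auxin-signalling repressors IAA14 by 1.46 and IAA30 by 1.15, while GH3.3, GH3.6 and the auxin carrier gene PIN3 changed by -0.32 to 0.06 log2. Of 8 tested auxin-synthesis genes 2 fell, TAR2 (-2.26 ± 0.4 log2, SE) and YUC8, which was 12.1-fold lower by its summed counts (95% interval 3.82 to 61.3). YUC4 had higher values on SIM, by 0.63 ± 0.13 log2 (SE), under the 2-fold limit. The median of this list was -0.94 log2, or -0.35 with genes at 0 set to their bound. At an adjusted p under 0.05 whatever the size 2 of its genes were higher and 2 lower, near the 24.9% and 24.8% of all genes. Its summed level was not lower on SIM, at 52.9 to 57.4 CPM against 45.3 to 52.1 CPM on CIM.

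The cytokinin side showed higher type-A response regulators, the quickly induced inhibitors of cytokinin signalling. Of 9 tested genes 3 rose and 1 fell, beside 7.73% and 7.6% of all genes, and 5 stayed under the 2-fold limit. At an adjusted p under 0.05 whatever the size 8 were higher, beside 24.9% of all genes. Their summed level was 561 to 590 CPM on SIM against 389 to 405 CPM on CIM. ARR15 had 40.3, 39.8 and 38.7 CPM on SIM against 10.8, 13.2 and 12.6 CPM on CIM (1.7 ± 0.09 log2, SE). ARR7 had 62, 60.5 and 62.9 CPM against 26.5, 29.3 and 26.7 CPM (1.17 ± 0.07 log2, SE), and ARR16 9.41, 7.26 and 6.91 CPM against 0.691, 0 and 0.433 CPM. ARR3 was the exception and fell to 5.82, 5.16 and 7.14 CPM on SIM, against 15.7, 19.6 and 16.5 CPM on CIM. Of 16 other tested cytokinin genes 2 fell, beside 7.6% of all genes. They were the cytokinin response factors CRF1 (-1.62 ± 0.19 log2, SE) and CRF2 (-1.78 ± 0.06). The receptor gene AHK4 had 224, 226 and 224 CPM on SIM against 145, 149 and 137 CPM on CIM, 0.65 ± 0.04 log2 (SE). Among 5 tested gibberellin oxidases, GA3OX1, which makes active gibberellin, rose by 3.21 ± 0.32 log2 (SE). GA20OX1, which acts 1 step earlier, changed by -2.35 ± 0.28, and the inactivating GA2OX6 by -1.5 ± 0.13.

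Genes of the photosynthetic apparatus rose with 1 exception among those tested. Of 29 nuclear photosystem and Rubisco genes 28 were tested and 27 rose, with a median of 2.64 log2. PSAF, a subunit of photosystem I, was the remaining 1, at 0.97 ± 0.06 log2 (SE). Their summed level was 1510 to 1586 CPM on SIM against 350 to 387 CPM on CIM and 377 to 414 CPM in the dark-grown explants at 0 h. PSBQ-2, of the oxygen-evolving complex, had 26.9, 26.9 and 27.9 CPM on SIM against 0.922, 2.23 and 0.433 CPM on CIM (4.52 ± 0.37 log2, SE; edgeR adjusted p = 3.22e-09). PSBS, which senses excess light, had 48.4, 51.6 and 51.8 CPM against 3.46, 4.47 and 4.33 CPM (3.62 ± 0.16 log2, SE). LHCB1.3, an antenna protein of photosystem II, had 93.8, 97.2 and 101 CPM against 7.84, 11.4 and 4.12 CPM, and RBCS1A, the small Rubisco subunit, 78.4, 82 and 81.3 CPM against 12.4, 17.1 and 11.5 CPM. SIM and CIM libraries did not overlap in any of these 4 genes, which was also so in 60.9% of all genes tested. The LHCB genes are close copies of one another and share reads, and several members, among them LHCB3, LHCB6 and PSBR, overlap a neighbouring gene, so their single values are less certain than the sum.

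Of 12 tested genes of chlorophyll synthesis and its regulators 4 rose, all of them in the synthesis pathway. GUN5, the large subunit of the magnesium chelatase that starts the chlorophyll branch, had 216, 210 and 219 CPM on SIM against 36, 35.8 and 34.7 CPM on CIM (2.6 ± 0.16 log2, SE). GUN4, its activator, had 37.2, 32.1 and 35.2 CPM against 1.15, 0.497 and 1.95 CPM (4.79 ± 0.27 log2, SE). PORB, which reduces protochlorophyllide in light, had 60, 59.5 and 61.5 CPM against 8.76, 7.2 and 8.67 CPM, and the chelatase subunit CHLI1 rose by 1.19 ± 0.07 log2 (SE). GLK2, a transcription factor of chloroplast development, stood at 10.1, 11 and 8.52 CPM on SIM against 4.15, 4.47 and 7.15 CPM on CIM, under the 2-fold limit. HY5, the light-signalling factor, changed by 0.32 ± 0.08 log2 (SE), and GLK1 and GNC had at most 0.248 CPM in any library of either medium. In plastid nitrogen assimilation, GLN2 rose by 2.05 ± 0.11 log2 (SE) and GLU1 by 3.94 ± 0.47. They were the 2 of 8 tested nitrate genes that rose, and NIA1, NIA2 and NIR1, which reduce nitrate and nitrite, changed by -0.55 to 0.29 log2.

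**Figure D3:**
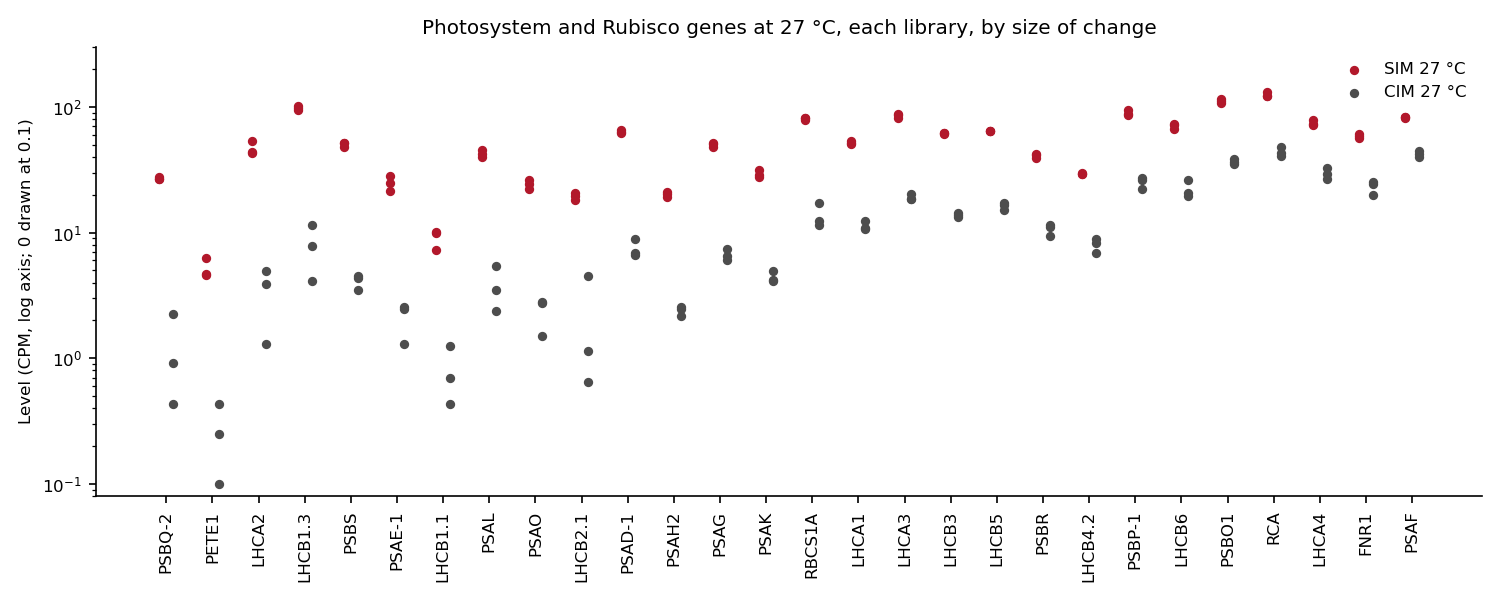
Level of the 28 tested photosystem and Rubisco genes at 27 °C (vertical axis, CPM on a log scale, with 0 drawn at 0.1), 1 point per library, SIM in red and CIM in dark grey, ordered by the size of the change. In every gene the SIM points lie above the CIM points, from PSBQ-2 with the largest change to PSAF with 0.97 log2. Over all genes tested, 60.9% had no overlap between the groups in either direction.

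Root hair genes were among the largest rises, with EXPA7, PRP3 and RHS13 among the 12 genes named for the largest log2 change. Of 9 listed genes 8 were tested and 7 rose, and their summed level was 282 to 355 CPM on SIM against 18.4 to 21.9 CPM on CIM and 1.49 to 4.24 CPM at 0 h. The promoters of 3 of these genes and of RHS13 are given first, because they carry the letters known as the core of the root hair element, bound in Arabidopsis by RSL-type factors. The letters TG, then any 3 or 4 bases, then GCACG or TCACG were searched on both strands, from 250 bases before to 50 after each start, and matches are in capitals. The bases before the start are printed, without those that belong to an annotated transcript, from RefSeq sequence of the TAIR10.1 assembly.
EXPA7, chr1:4276269-4276504, plus strand: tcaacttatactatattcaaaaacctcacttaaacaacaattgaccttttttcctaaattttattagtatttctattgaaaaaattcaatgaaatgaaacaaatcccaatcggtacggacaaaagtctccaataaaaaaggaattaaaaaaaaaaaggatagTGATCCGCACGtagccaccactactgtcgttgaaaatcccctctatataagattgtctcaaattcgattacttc
LRX1, chr1:4069874-4069991, plus strand: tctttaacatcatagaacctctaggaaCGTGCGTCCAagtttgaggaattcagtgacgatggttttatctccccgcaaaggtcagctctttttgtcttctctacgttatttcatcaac
PRP3, chr3:23182472-23182721, plus strand: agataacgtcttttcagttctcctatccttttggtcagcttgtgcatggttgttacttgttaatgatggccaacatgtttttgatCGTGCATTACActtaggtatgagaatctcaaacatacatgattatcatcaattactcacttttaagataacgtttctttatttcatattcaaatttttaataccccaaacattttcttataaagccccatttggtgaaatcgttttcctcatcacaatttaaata
RHS13, chr4:993040-993288, minus strand: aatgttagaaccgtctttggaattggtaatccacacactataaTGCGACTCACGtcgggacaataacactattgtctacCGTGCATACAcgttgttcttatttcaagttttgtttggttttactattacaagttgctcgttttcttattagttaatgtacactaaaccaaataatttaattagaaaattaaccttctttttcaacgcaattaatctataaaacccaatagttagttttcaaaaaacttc
Counted from the gene start in the deposited table, the match nearest the start begins at base -88 in EXPA7, -223 in LRX1, -165 in PRP3 and -171 in RHS13. Next to that start 14 bases of EXPA7, 132 of LRX1 and 1 of RHS13 are not printed, because the RefSeq transcript begins further out. A match was present in 4 of the 8 tested root hair genes (EXPA7, EXPA18, LRX1 and PRP3), in 25 of the 100 largest rises and 8 of the 100 largest falls, and in 5.03% of all 20703 promoters. The share was 6.62% among all genes that rose and 5.27% among all that fell, so it stood out at the top of the rises and little elsewhere. The pattern and the printed promoters were chosen after values were seen, and a match is a description of letters, not a site shown to be used.

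EXPA7, an expansin that loosens the wall of the growing hair, had 29.3, 35.1 and 27.2 CPM on SIM against 0, 0 and 0 CPM on CIM, at least 132-fold higher (edgeR adjusted p = 7.94e-17). LRX1, a leucine-rich repeat extensin of the hair wall, had 93.6, 112 and 93.8 CPM against 0, 0.745 and 0 CPM, a ratio of 432-fold (95% counting interval 147 to 2097). PRP3, a proline-rich hair wall protein, had 87.3, 101 and 77.6 CPM against 0, 0.248 and 0 CPM, 1150-fold (206 to 45451). All traces of LRX1 and PRP3 on CIM came from library 2. RHS13, named in the annotation as root hair specific, had 26, 34.7 and 26.7 CPM against 0, 0 and 0 CPM, at least 126-fold higher. RSL4, the bHLH factor that sets hair growth, had 11.2, 13.8 and 9.21 CPM against 0.691, 0 and 0.867 CPM (4.33 ± 0.4 log2, SE), and RSL2, its relative, was 20.9-fold higher by summed counts (95% interval 5.42 to 178). COW1, a phosphatidylinositol transfer protein of the hair tip, rose by 4.87 ± 0.27 log2 (SE). RHD6, the bHLH factor upstream of both RSL genes, had 25.3, 25.5 and 23 CPM on SIM against 18.7, 20.1 and 16.5 CPM on CIM, 0.42 ± 0.13 log2 (SE). RHD6 RNA was therefore already present in callus at 27 °C, where EXPA7, LRX1, PRP3 and RHS13 were at or near 0. Whether RHD6 has a part in their rise was not tested.

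Extensins, the cross-linking proteins of the cell wall, were among the genes with the highest folds. Of 10 tested EXT and LRX genes 7 rose, and the family's median was 9.27 log2, or 8.32 with genes at 0 set to their bound. EXT6 had 182, 202 and 176 CPM on SIM against 0, 0 and 0 CPM on CIM, at least 808-fold higher (edgeR adjusted p = 7.99e-07). EXT10 had 201, 234 and 192 CPM against 0, 0.497 and 0 CPM, a ratio of 1356-fold (95% interval 375 to 11205). AT3G54580, annotated as an extensin-like protein, had 404, 466 and 381 CPM against 0, 1.74 and 0 CPM, the largest gain in CPM of any gene that rose. Library 2 of SIM was the highest of its group in each of these 3 genes. Extensins are repetitive and share stretches with one another, so the split of reads among single members is uncertain. Other wall proteins moved both ways, where 7.73% of all genes rose and 7.6% fell. Of 16 tested expansins of the EXPA family 4 rose and 2 fell, and of 26 tested XTH enzymes, which cut and rejoin xyloglucan, 8 rose and 6 fell. XTH7 had 67.2, 66.1 and 68.4 CPM on SIM against 1.15, 3.23 and 1.3 CPM on CIM (5.16 ± 0.36 log2, SE), and XTH24 fell to 44.8, 47.3 and 44 CPM on SIM, against 121, 120 and 107 CPM on CIM.

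**Figure D4:**
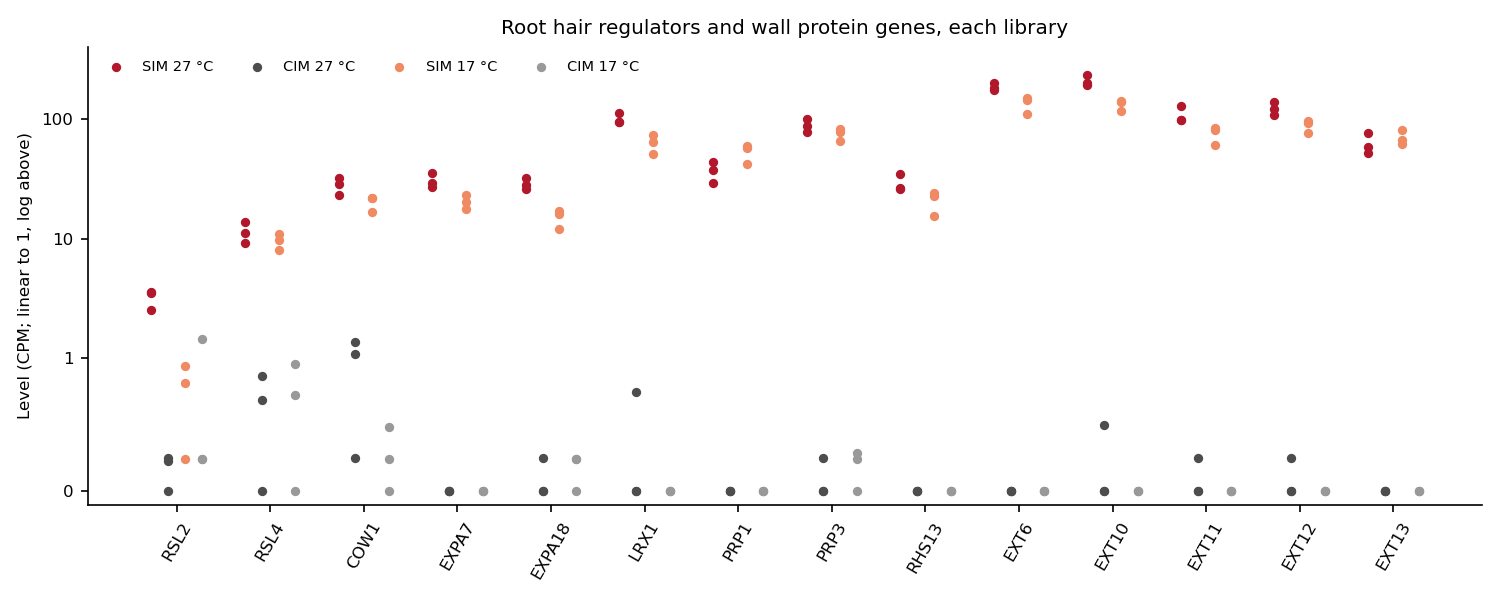
Level of root hair regulators and wall protein genes (vertical axis, CPM, linear to 1 and log above), 1 point per library, for SIM and CIM at 27 °C and SIM and CIM at 17 °C. EXPA7, RHS13 and EXT6 stand at 27.2 CPM or more, 26 CPM or more and 176 CPM or more in SIM at 27 °C and at 0 in CIM.

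Epidermal genes fell. Of 12 genes of epidermis and cuticle 11 were tested, 8 fell, with a median of -2.2 log2, and their summed level was 258 to 285 CPM on SIM against 904 to 943 CPM on CIM and 1092 to 1150 CPM at 0 h. ATML1, the homeodomain factor that defines the outer cell layer, had 3.14, 2.34 and 1.15 CPM on SIM against 30.9, 31 and 26.7 CPM on CIM (-3.71 ± 0.18 log2, SE; edgeR adjusted p = 6.37e-18). Its partner PDF2 had 7.84, 7.5 and 4.38 CPM against 80.4, 84.9 and 82.1 CPM, and the epidermal protein gene PDF1 had 11, 7.97 and 8.06 CPM against 135, 143 and 135 CPM. The wax exporter ABCG12 had 33.1, 33.3 and 32 CPM against 119, 125 and 127 CPM. Of the members that did not fall, GL2, the homeodomain factor of non-hair cells, had 10.5, 10.1 and 8.06 CPM on SIM against 8.99, 9.44 and 10.2 CPM on CIM, with overlapping groups. ACR4, a receptor kinase of outer layers, stood at 46.1, 36.6 and 43.5 CPM against 85, 81.4 and 85.4 CPM, at the edge of the limit with -1.0 ± 0.07 log2 (SE). None of the 10 stomatal lineage genes was tested, with a summed level of 1.41 to 2.3 CPM on SIM and 0.433 to 1.49 CPM on CIM. Of 4 tested root cap genes 3 fell, and SMB, a NAC factor of root cap maturation, was 33.2-fold lower by summed counts (95% interval 8.84 to 280).

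Some vascular genes rose, beside 7.73% of all genes. Of 13 tested phloem and procambium genes 4 rose, led by SUC2, the sucrose loader of companion cells, with 157, 162 and 161 CPM on SIM against 47.2, 53.9 and 51.6 CPM on CIM (1.65 ± 0.05 log2, SE). APL, the phloem identity factor, had 48.1, 44.5 and 43.5 CPM against 19.4, 15.6 and 22.1 CPM, and BRX, a regulator of early phloem, rose by 1.21 ± 0.12 log2 (SE). NEN4, a nuclease of maturing sieve elements, rose by 1.08 ± 0.2 log2 (SE) and stood at 0.92, under the limit, without CIM library 2. Of 17 tested xylem genes 4 rose, with a median of 0.47 log2. VND7, a master switch of vessel formation, had 16.1, 16.4 and 20.5 CPM against 7.38, 6.95 and 9.1 CPM, and VND6, its partner, rose by 1.11 ± 0.17 log2 (SE). The other 2 lay at the limit. The lignin laccase LAC4 (1.06 ± 0.07 log2, SE) had 0.96 without CIM library 2. MYB46 (1.04 ± 0.14) had 0.98 without CIM library 3 and 0.93 without SIM library 1. The secondary wall cellulose synthases CESA4, CESA7 and CESA8 changed by 0.36 to 0.48 log2.

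Of 18 tested genes of Casparian strip and suberin 8 rose and 2 fell, beside 7.73% and 7.6% of all genes. Their summed level was lower on SIM, at 237 to 265 CPM against 408 to 432 CPM on CIM. MYB36, the switch of endodermal differentiation, had 11.9, 12 and 13.1 CPM on SIM against 2.54, 2.48 and 1.95 CPM on CIM (2.4 ± 0.2 log2, SE). ASFT, which adds ferulate to suberin, had 11.4, 9.37 and 11.3 CPM against 1.38, 2.23 and 1.95 CPM, and the fatty acid hydroxylases CYP86A1 and CYP86B1 rose by 3.96 ± 0.83 and 2.59 ± 0.31 log2 (SE). GPAT5, the acyltransferase of suberin, rose by 2.37 ± 0.78 log2 (SE), but not past the threshold without CIM library 1 or without SIM library 3. The elongase KCS2 and the reductase FAR1 went the other way, with FAR1 at 14.1, 13.1 and 11.3 CPM on SIM against 82.7, 87.7 and 86.5 CPM on CIM (-2.73 ± 0.08 log2, SE). The 5 CASP genes, which build the Casparian strip, had at most 1.17 CPM in any library of either medium.

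Of 33 genes of the cell cycle and DNA replication all were tested, 2 rose and 0 fell, with a median of -0.13 log2. The share that rose was near the 7.73% of all genes, and at an adjusted p under 0.05 whatever the size 5 were higher and 13 lower, beside 24.9% and 24.8% of all genes. The 2 were the inhibitors of cyclin-dependent kinases KRP2, with 33.6, 42.4 and 38.7 CPM on SIM against 11.8, 11.4 and 12.1 CPM on CIM (1.69 ± 0.11 log2, SE), and KRP1 (1.56 ± 0.31). The mitotic cyclin CYCB1;1 had 31.8, 30.7 and 31.3 CPM on SIM against 33, 32.5 and 36.2 CPM on CIM. The MCM2 to MCM7 genes, which license replication, changed by -0.33 to -0.13 log2. Of 255 tested cytosolic ribosomal protein genes 1 fell, with a median of -0.12 log2. At an adjusted p under 0.05 whatever the size 24 were higher and 98 lower, beside 24.9% and 24.8% of all genes. Among 10 genes of wound-induced reprogramming 2 rose, and WIND1, a wound-induced factor of callus formation, had 182, 197 and 164 CPM on SIM against 183, 190 and 179 CPM on CIM. Those 2 were AT5G65130 (24.3-fold by summed counts, 95% interval 6.38 to 207) and RAP2.6, with 0.896, 0.469 and 0.691 CPM on SIM against 0, 0.248 and 0 CPM on CIM. The call of RAP2.6 was lost without CIM library 1, CIM library 3 or SIM library 1.

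Heat shock genes changed in both directions. Of 15 tested genes 5 fell and 2 rose, beside 7.6% and 7.73% of all genes, with a median of -0.28 log2. The small heat shock gene HSP17.6II had 4.93, 5.39 and 4.38 CPM on SIM against 29.5, 21.1 and 26 CPM on CIM (-2.38 ± 0.16 log2, SE). HSP18.2, of the same family, had 26.9, 26.5 and 30.9 CPM on SIM against 6.22, 8.94 and 9.75 CPM on CIM (1.75 ± 0.15 log2, SE), and the heat shock factor HSFA3 rose by 1.33 ± 0.12. The chaperones HSP70, HSP90.1 and HSP101 changed by -0.28 to -0.18 log2. Small heat shock genes are close copies, so reads may be split among them.

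Among defence and metabolic lists the flavonoid list moved most. Of 8 tested flavonoid genes 6 rose and 1 fell, with a median of 1.9 log2. CHS, chalcone synthase and the entry enzyme, had 167, 177 and 182 CPM on SIM against 30.7, 29.3 and 35.3 CPM on CIM (2.46 ± 0.08 log2, SE), although it overlaps a neighbouring gene. FLS1, which makes flavonols, had 52.6, 58.1 and 60.6 CPM against 6.68, 9.19 and 7.15 CPM (2.9 ± 0.1 log2, SE). MYB11, an activator of these genes, was the member that fell, with 0, 0.234 and 0 CPM on SIM against 13.1, 15.9 and 13.4 CPM on CIM, 184-fold lower by summed counts (95% interval 32.7 to 7319). Its relative MYB12 changed by 0.17 ± 0.11 log2 (SE), and the anthocyanin genes DFR and LDOX had at most 0.248 CPM in any library of either medium.

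Of 9 tested jasmonate genes 2 rose, the vegetative storage proteins VSP2 and VSP1. VSP2 had 76.8, 80.4 and 83.6 CPM on SIM against 0.23, 1.24 and 0.65 CPM on CIM (6.79 ± 0.19 log2, SE; edgeR adjusted p = 5.62e-24). VSP1 had 50.8, 56.5 and 54.6 CPM against 3.23, 3.23 and 4.12 CPM. These 2 are close paralogs, and the synthesis and signalling genes AOS and MYC2 stayed at -0.09 ± 0.08 and -0.08 ± 0.08 log2 (SE). Of 9 tested salicylate genes 1 rose, the transporter gene EDS5 (1.22 ± 0.1 log2, SE). Over all genes 7.73% rose and 7.6% fell, so that 1 call in a list as short as those given here is no result about the list. Of 8 tested cold genes 2 rose and 1 fell, and the list's median was 0.54 log2, or 0.22 with genes at 0 set to their bound. COR6.6 had 11.2, 12 and 10.1 CPM against 3.46, 2.98 and 3.68 CPM, the call of GOLS3 was lost without CIM library 3, SIM library 1 or SIM library 3, and CBF2, which fell, had 0 in all SIM libraries against 0.691, 0.497 and 0.433 CPM. Of 6 low-oxygen genes the sucrose synthase SUS4 rose, with 18.6, 15.7 and 19.1 CPM against 3.69, 4.22 and 4.33 CPM. Of 5 tested iron genes NAS4, which makes the metal chelator nicotianamine, rose by 3.22 ± 0.34 log2 (SE), and FRU, the bHLH factor of iron uptake, fell to 0 on SIM, against 0.922, 0.745 and 0.217 CPM on CIM. Of 8 sugar genes GPT2 fell, a call lost without any 1 of the 6 libraries. Of 22 tested aquaporins 5 rose and 2 fell, with GAMMA-TIP, a water channel of the vacuole, at 58, 59.8 and 54.8 CPM on SIM against 1.84, 1.74 and 2.17 CPM on CIM (4.88 ± 0.13 log2, SE).

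The largest falls were a mixed set. AT4G09940, annotated as a nucleoside triphosphate hydrolase, had 0, 0 and 0 CPM on SIM against 42.6, 46.2 and 43.8 CPM on CIM, at least 192-fold lower (edgeR adjusted p = 3.78e-21). AOX1B, an alternative oxidase of mitochondria, had 0, 0 and 0 CPM against 21.7, 30.5 and 21.9 CPM, at least 107-fold lower. RBK2, a protein kinase that binds ROP GTPases, had 0.224, 0.234 and 0 CPM against 88.3, 95.6 and 89.1 CPM, 594-fold lower by summed counts (95% interval 164 to 4908). The 8 largest falls in CPM included 3 genes of leucine-rich receptor-like kinases. AT5G48940, a leucine-rich repeat kinase, had 1.57, 1.64 and 1.15 CPM on SIM against 205, 210 and 204 CPM on CIM. LUP2, a triterpene synthase, had 26.9, 24.6 and 22.3 CPM against 284, 297 and 267 CPM, and the cuticle gene CER3 59.3, 49.2 and 63.3 CPM against 234, 249 and 237 CPM. In all, 49 genes had 3 counts or fewer over the CIM libraries and at least 10 CPM on SIM, and 43 genes showed the reverse. Of the 49, 35 also had 3 counts or fewer at 0 h, and 35 reached 10 CPM in SIM at 17 °C.

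The same move at 17 °C, which shares no library with that at 27 °C, gave 1559 genes that rose (7.53%) and 1606 that fell (7.76%). Of the genes that rose at 27 °C, 956 also rose at 17 °C, which is 59.8% of the 27 °C genes and 61.3% of the 17 °C genes, and 42 fell there. Of those that fell at 27 °C, 1005 also fell at 17 °C (63.9% and 62.6%), and 26 rose. The difference between the 2 changes was itself tested, and passed both thresholds in 1516 genes (7.32%), 652 (3.15%) with the higher change at 27 °C and 864 (4.17%) with the lower. At the adjusted p alone the shares were 8.26% and 10.2%. Of 8 tested root hair genes the difference was higher in 1, RSL2, and lower in 1, RHD6, and the call of RSL2 was lost without library 1 of CIM at 17 °C. EXT6, an extensin, stood at 143, 150 and 111 CPM in SIM at 17 °C against 0, 0 and 0 CPM in CIM at 17 °C.

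In 7 of 23 tested shoot meristem genes the change was higher at 27 °C, beside 3.15% of all genes. The list's median change was 1.16 log2 at 27 °C and 0.45 log2 at 17 °C, and its median difference 0.02 log2. Not all of the 7 rose at 27 °C: HAN fell there, and RAX3 and KNAT2 neither rose nor fell. WUS had 5.91, 4.6 and 5.38 CPM in SIM at 17 °C and 0 in all CIM libraries at both temperatures, so its difference had no usable error and was not called. STM had 0, 0.271 and 0 CPM in SIM at 17 °C against 0.291, 0.24 and 0.241 CPM in CIM at 17 °C, and the difference from the change at 27 °C was called (edgeR adjusted p = 0.000633). CUC1 had 4.49, 4.87 and 6.36 CPM in SIM at 17 °C against 2.03, 1.68 and 0.965 CPM in CIM at 17 °C, so its change was 1.45 ± 0.45 log2 (SE) higher at 27 °C (edgeR adjusted p = 0.0189). That call was lost without CIM library 1 or library 2 at 17 °C, and the count of 7 ranged from 5 to 8 over the alternatives. CLV1 had 18.4, 17 and 17.9 CPM in SIM at 17 °C against 18.3, 16.1 and 21.5 CPM in CIM at 17 °C, a change 1.34 ± 0.17 log2 (SE) higher at 27 °C. CYP78A5, likewise at 0 in all CIM libraries, had 0.945, 0.271 and 0.979 CPM in SIM at 17 °C. Of 20 root-type genes 6 had a lower change at 27 °C, or 5 to 7 over the alternatives, and 1 had a higher change. That gene, GATA23, a GATA factor of lateral root founder cells, had 1.79, 1.64 and 2.53 CPM in SIM against 3.69, 3.48 and 2.38 CPM in CIM at 27 °C, and 0.709, 0.541 and 0.489 CPM in SIM against 8.72, 7.21 and 8.2 CPM in CIM at 17 °C, a difference of 3.05 ± 0.56 log2 (SE). PLT1 had 8.98, 5.41 and 5.63 CPM in SIM at 17 °C against 95.1, 87.5 and 82.3 CPM in CIM at 17 °C, and its change at 27 °C minus that at 17 °C was -4.59 ± 0.43 log2 (SE; edgeR adjusted p = 1.08e-09). BBM followed with -2.45 ± 0.41 and PLT2 with -1.63 ± 0.42 log2 (SE), and the call of WOX5 was lost in 6 of 20 alternatives, DESeq2 among them.

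Photosystem genes had a median change of 2.64 log2 at 27 °C and 1.27 log2 at 17 °C, and 14 of 28 had a higher change at 27 °C. That count was 8 without library 3 of CIM at 17 °C, whose summed photosystem level of 605 CPM was the highest of its group, and 12 to 15 otherwise. Heat shock genes had a median of -0.28 log2 at 27 °C and -1.74 log2 at 17 °C, and 8 of 15 had a higher change at 27 °C in every alternative. HSP90.1 had 223, 235 and 212 CPM in SIM against 269, 267 and 247 CPM in CIM at 27 °C, and 61.7, 53 and 53.6 CPM in SIM against 245, 224 and 235 CPM in CIM at 17 °C. The difference was 1.83 ± 0.08 log2 (SE; edgeR adjusted p = 3.14e-14). Of the cytokinin regulators ARR3 had 30, 26 and 28.9 CPM in SIM against 15.1, 17.5 and 15.7 CPM in CIM at 17 °C, a difference of -2.31 ± 0.21 log2 (SE). RHD6 had 15.6, 11.9 and 10.3 CPM in SIM against 3.49, 2.64 and 2.17 CPM in CIM at 17 °C, and its difference was -1.78 ± 0.27 log2 (SE). VSP1 and VSP2 had changes 3.34 ± 0.17 and 3.94 ± 0.58 log2 (SE) higher at 27 °C.

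**Figure D5:**
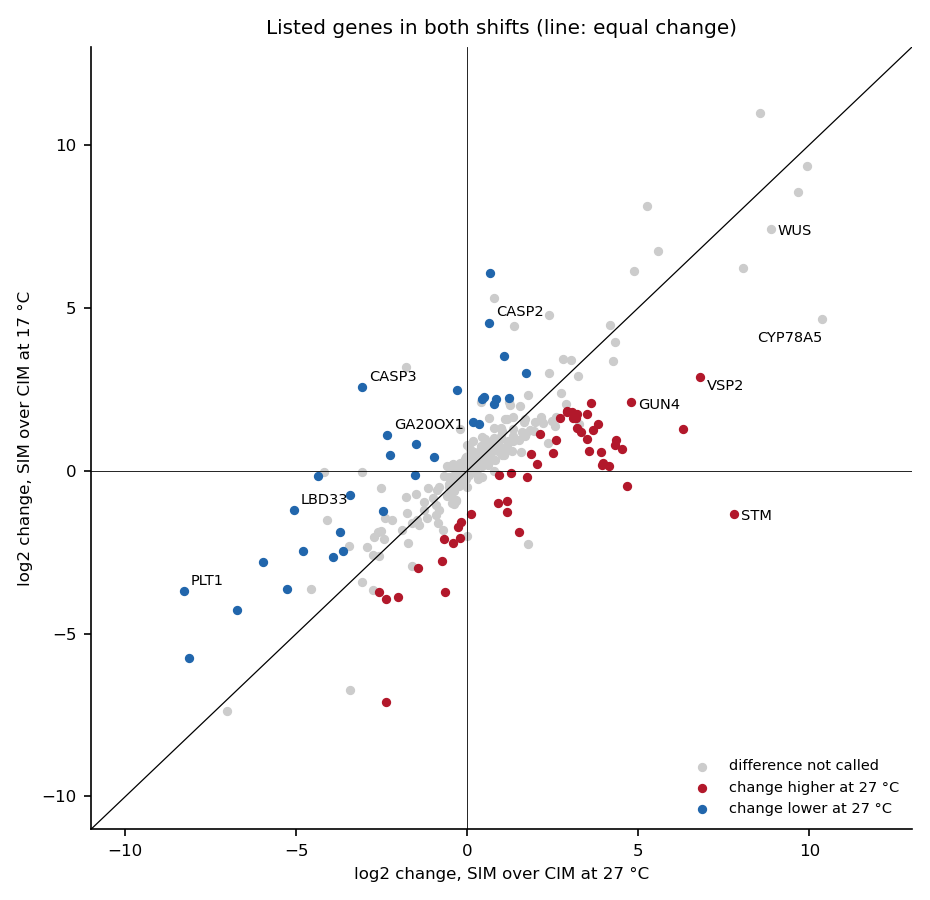
Log2 change from CIM to SIM at 27 °C (horizontal axis) against that at 17 °C (vertical axis) for 341 tested genes of the lists, 1 point per gene, with the line of equal change. The difference was called in 83 genes, red where the change was higher at 27 °C (STM, GUN4 and VSP2 among them) and blue where it was lower (PLT1 and LBD33); points of genes at 0 in a group are fitted values and no bounds.

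The promoters of tested genes were also searched for 7 other short patterns on both strands, as a description. The auxin response letters TGTCTC were found in 18.7% of promoters of genes that rose, 16.6% of those that fell and 16.3% of all, and in 10 of 20 auxin-response genes. The G-box CACGTG was found in 9.5%, 8.01% and 9.02%, and in 12 of 28 photosystem genes. The letters AGATT were found in 70.5%, 68.2% and 69.8%. For GAANNTTC, where N is any base, the shares were 10.9%, 11.6% and 12.2%, and 9 of 15 heat shock genes held a match. The telobox AAACCCTA and the letters TGGGCC, both frequent before ribosomal protein genes, were found in 4% and 7.19% of promoters of genes that rose and in 4.57% and 5.21% of those that fell, against 8.64% and 18.3% of all. The letters TATAAA stood in 57.9% of promoters of genes that rose and 59.4% of those that fell, against 49% of all. Genes that moved in either direction had fewer AAACCCTA and TGGGCC matches and more TATAAA matches than all genes tested.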

How the data were processed

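RNA was extracted with an RNeasy Plant Mini kit and made into libraries with a KAPA Stranded mRNA-seq kit, per the labels' protocols. The authors deposited raw counts: whole numbers of reads for each annotated gene in each library, without normalization. The submitters' processing notes name FastQC 0.11.7, Bowtie2 2.3.4.3, SAMtools 1.9, bedtools 2.26.0 and the TAIR10 build; the sources used here do not give their roles, the use of strand, or the handling of duplicates and of reads with several matches. The table holds 15 per-sample columns, 0 of them left over, and 279 organelle genes at 0.

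Counts were tested with edgeR 4.0.16 (R 4.3.3; TMM scaling, filterByExpr, robust quasi-likelihood fit of all 15 libraries in 5 groups, Benjamini-Hochberg adjustment over 20704 genes). The SE is the log2 change divided by the square root of F. DESeq2 1.42.0 was an alternative. On simulated counts for SIM against CIM at 27 °C, 50 of 19288 genes were changed per fold size. At an adjusted p under 0.05 alone edgeR found 68% at 1.5-fold and 96% at 2-fold, with 11 false calls. The simulated dispersion was a fixed value above the common dispersion fitted to the data, which was 9.77e-05. Only genes above a count limit were changed, a far smaller share than was called in the data. The simulation therefore checks the code and does not give the power or the false calls of these data. Promoter sequence was read from RefSeq TAIR10.1, whose tRNA genes share a start or an end with 99.68% of the table's, and 32835 table genes matched it.

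Members and lists were chosen with earlier results of these data known. Genes were named by rule: the 12 largest log2 changes each way with at least 10 CPM and no overlap, the 8 largest CPM differences each way, the 6 largest differences from 17 °C each way, up to 5 called members per list by p, and 16 fixed regulators. Other members named, the families by name and the root hair pattern were chosen after values were seen. Counting intervals are at 95%, the floor is 3 counts over a group, and both cover counting error alone.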

Additional observations from a re-analysis of the deposited data

Results flagged for a closer look

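The change from CIM to SIM differed between 27 °C and 17 °C, by the test of the difference itself in edgeR (adjusted p under 0.05 and at least 1 log2 unit), in 1516 of 20704 genes. Values here are the change at 27 °C minus that at 17 °C, in log2 units. Where a group stands at 0 the fitted size is no bound.

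Among the root-type and shoot regulators the difference was 9.11 for STM, 1.45 for CUC1, -4.59 for PLT1, -1.63 for PLT2, -2.4 for WOX5 and -3.18 for LBD29. Among the largest falls at 27 °C it was -5.85 for AT4G09940, -6.25 for AOX1B, -4.4 for AT1G56680, -6.17 for ASL5, -7.26 for AT3G16660, -3.97 for RBK2, -4.81 for AT5G50175, -6.15 for AT4G22470 and -5.32 for NIG1. AOX1B had 0, 0 and 0 CPM in SIM against 21.7, 30.5 and 21.9 CPM in CIM at 27 °C, and 5.43, 5.41 and 6.12 CPM in SIM against 60.2, 54.3 and 62 CPM in CIM at 17 °C.

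The largest differences toward 27 °C were 8.65 for AT2G39490, 8.2 for AT3G25190, 7.62 for SSL2, 6.83 for AT3G15830, 6.7 for CYP716A1 and 6.58 for PTAC16. AT3G25190, annotated as a vacuolar iron transporter family member, had 30.5, 23.4 and 27.2 CPM in SIM against 0, 0 and 0.217 CPM in CIM at 27 °C, and 1.89, 2.98 and 3.43 CPM in SIM against 2.33, 2.4 and 4.83 CPM in CIM at 17 °C. AT2G39490 and AT3G15830 did not pass the threshold at 27 °C, and their difference comes with lower SIM than CIM values at 17 °C. The value for PTAC16 was 4.05, without a call, when library 3 of CIM at 17 °C was left out.

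The largest differences the other way were -9.74 for AT4G06566, -8.69 for AT1G36630, -7.36 for AT1G30730, -7.21 for AT3G48510 and -7.0 for PRP2. AT1G30730, annotated as a berberine-bridge-type oxidase, had 0, 0.234 and 0.461 CPM in SIM against 83.9, 89.4 and 73.9 CPM in CIM at 27 °C, and 93.1, 95 and 84.4 CPM in SIM against 179, 168 and 176 CPM in CIM at 17 °C. PRP2, a proline-rich wall protein, had at most 0.497 CPM in any library at 27 °C, and 34, 34.4 and 31.3 CPM in SIM against 0.291, 0 and 0.241 CPM in CIM at 17 °C. The cause of these differences was not tested.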

How the results depend on the processing

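Over the alternatives (DESeq2's test and its size factors, 2 other filters on low counts, the compared groups alone, a replicate block, libraries 1 and 3 of CIM summed, and counts corrected for positions counted once) 1430 to 1795 genes rose and 1335 to 1784 fell at 27 °C. Leaving out 1 library at a time gave 1571 to 1609 and 1552 to 1599. Deviations of SIM and CIM libraries with equal replicate numbers had correlations of 0.0056, 0.0576 and 0.0525, and those with unequal numbers -0.0741 to 0.0233. With a spread no larger than sampling noise these values cannot show whether the libraries were paired. The replicate block gave 1593 and 1573. Of the counts, list counts and named genes recomputed, 2784 values were labelled the same, 34 moved, 21 lost the call and 0 reversed. For a count of genes, the same means only that it stayed within a set fold of the main count. Calls at 27 °C that were lost are given beside ANT, LAC4, NEN4, MYB46, RAP2.6, GOLS3, GPT2 and GPAT5; the call of GPT2 was also lost with the block. PRP2 lost the call of its difference from 17 °C with corrected counts and without CIM library 2 at 27 °C. In the 250 bases before the start alone, shares among genes that rose and that fell were 14.4% and 12.6% for TGTCTC, 63.6% and 61.1% for AGATT, 9.06% and 9.85% for GAANNTTC, 2.94% and 3.49% for AAACCCTA, and 54.8% and 55.8% for TATAAA, since fewer bases were searched. Depth limits genes near 1 CPM, about 4 counts a library: the calls of CBF2, RAP2.6 and FRU rest on at most 9 counts over the higher group. Counts per exonic base were 0.0997 in the median gene, over 0.5 in 157 genes, AT3G54580 among them, and over 1 in 10.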
